A study of Mus musculus with 2 samples.

Results

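The genes of the oxidative stress defence and of glutathione metabolism were followed in the skin of newborn *Pnpla1*-/- mice. They were 42 genes named by symbol, and their members were the array probes, other than control probes, that carry one of these gene names in the deposited scanner files. Of the 42 genes, 41 had a probe, with 57 probes in all, among 30139 genes on the array, and no probe carried the name *Gsta1*. *Pnpla1* belongs to the patatin-like phospholipase family.

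Total RNA was taken from skin at postnatal day 0 of *Pnpla1*+/+ (wild type) and *Pnpla1*-/- (knockout) mice, both on the C57BL/6N background. Equal amounts of RNA from 6 animals were pooled for each genotype and hybridised to 1 Agilent 1-colour array, so that 2 arrays were compared. The methods describe a targeted allele carried by the whole animal, not restricted to a cell type, with wild-type littermates from heterozygous crosses as controls. Sample labels call the tissue skin, whereas the series' design text speaks of epidermis, and all 6 keratinocyte, 6 fibroblast, 6 skeletal muscle and 5 adipocyte markers examined were well above background on both arrays. With 1 array for each genotype there was no spread between samples, and all differences below describe these 2 pools without a test.

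Cells meet oxidants and reactive aldehydes with a set of enzymes that is switched on largely by the transcription factor Nrf2, the product of *Nfe2l2*. Keap1 holds Nrf2 in the cytoplasm and presents it for degradation until its cysteines are modified, after which Nrf2 enters the nucleus and binds antioxidant response elements with small Maf proteins. Many of the enzymes use glutathione, a tripeptide built from glutamate, cysteine and glycine, which is spent by peroxidases and transferases and renewed with NADPH. In skin these systems face air, light and the lipid peroxides that form in the barrier.

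Values are linear probe intensities, given for *Pnpla1*+/+ first, and the log2 difference (*Pnpla1*-/- minus *Pnpla1*+/+) was taken after each intensity was divided by the 75th percentile of its array, 2108 for *Pnpla1*+/+ and 1734 for *Pnpla1*-/-. Equal intensities on both arrays thus correspond to a positive difference. Where a gene had several probes the brightest one stands for it. Intensities of different probes cannot be compared with each other. Across 385 probes spotted at least 8 times on each array, the technical SD of a difference between single spots was 0.09, which covers the array only and neither the animals nor the labelling. The *Pnpla1* probe itself (mm9, chr17:29026908-29026967) gave 579 and 114, a difference of −2.07.

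All 41 genes with a probe were well above background on both arrays. Of these, 4 genes reached 2-fold or more in *Pnpla1*-/- skin (*Slc7a11*, *Gsta4*, *Osgin1* and *Sod2*), 1 was at least 2-fold lower (*Hmox1*), and 36 lay within 2-fold. On the array as a whole (22374 genes with a difference), 6.70% lay above the upper 2-fold line and 3.04% below the lower one. For the 41 genes these shares were 9.76% and 2.44%, near the background of the array. The median difference of the 41 genes was −0.02, with 20 above and 21 below 0, and the median over all genes was 0.00. The split into 4 higher and 1 lower depended on the scaling. With the arrays centred on 8 spike-in probes it was 2 higher and 7 lower (3.73% and 9.84% of all genes). With no scaling it was 2 higher and 4 lower (4.47% and 6.37% of all genes). Only *Slc7a11*, *Gsta4* and *Hmox1* were past 2-fold under the main setting and all 12 alternative settings of scaling, background and probe choice.

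**Figure D1:**
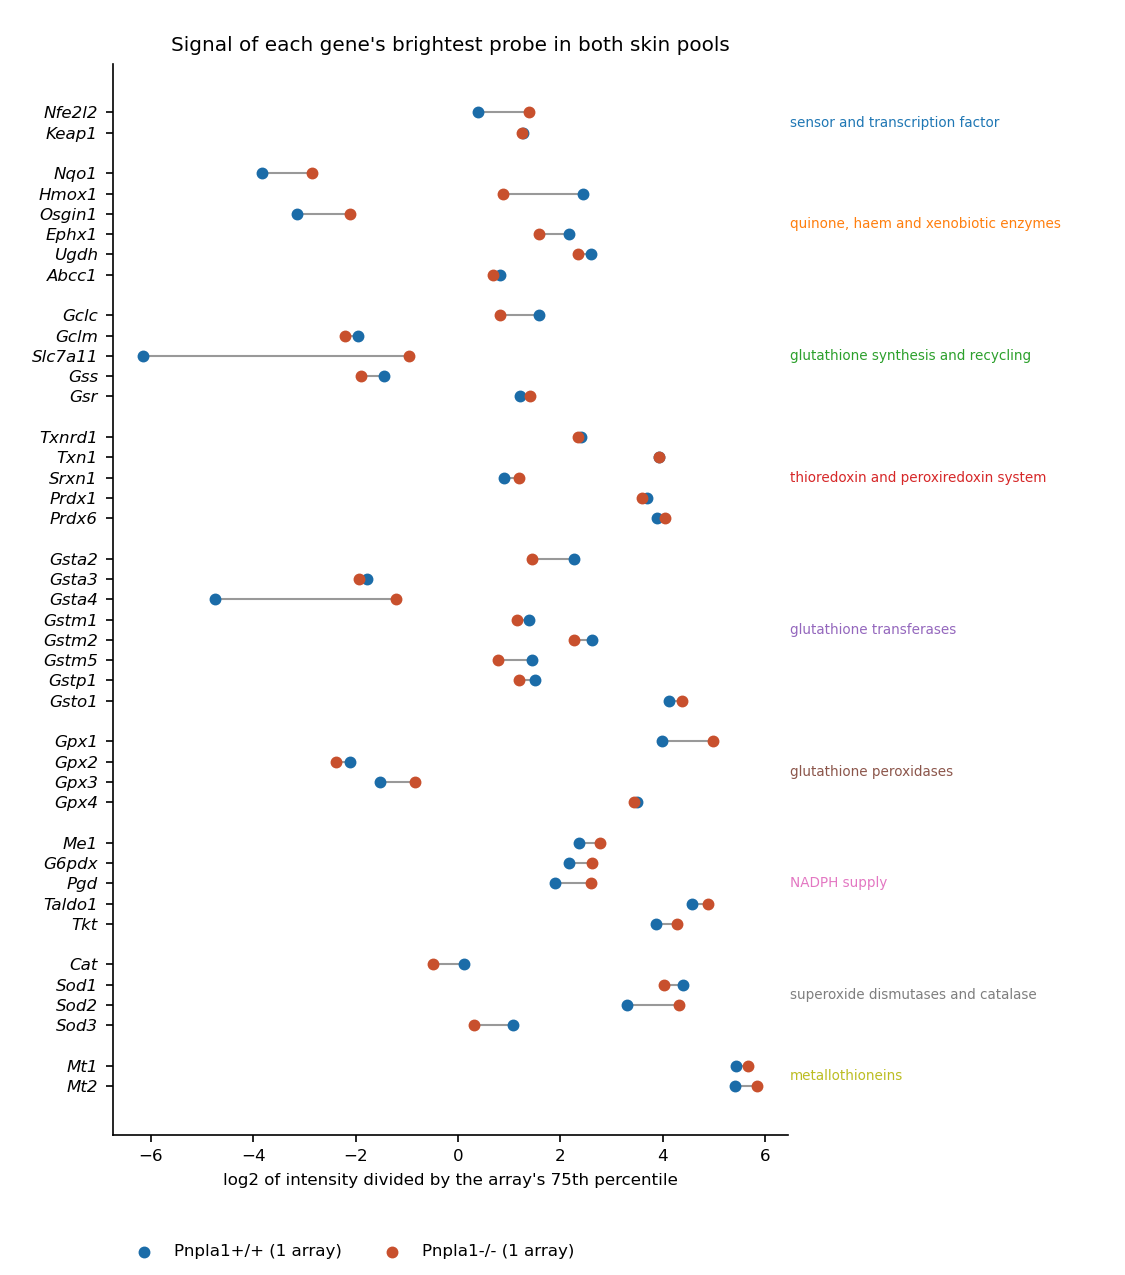
Log2 intensity after the main scaling, for the probe that stands for each of the 41 genes on the *Pnpla1*+/+ and the *Pnpla1*-/- array. Each array holds 1 pool of 6 animals, and genes are grouped by role. The widest gaps are those of *Slc7a11* (linear intensities 29.7 and 900.2) and *Gsta4* (78.7 and 752), while most pairs of points lie close together.

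*Slc7a11* encodes the transporter subunit of the exchanger that imports cystine, the source of cysteine for glutathione. Its single probe (mm9, chr3:50169700-50169759) gave 29.7 and 900.2, a difference of 5.20, or 36.8-fold, and it ranked 35 from the highest of 20680 genes measured on both arrays. The *Pnpla1*+/+ signal was close to 23.9, the dimmest signal that the array still called well above background, so the fold rests on a dim denominator and 1 spot. The difference was 4.77 with spike-in centring and 3.72 after normexp background correction. *Slc3a2*, the heavy chain that carries the transporter to the membrane, differed by 0.51.

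Upstream of the *Slc7a11* start, the RefSeq promoter window holds the letters TGATGCAA, known as the core of the amino acid response element, on both strands. These letters were searched after the sequence had been seen. They occur in the windows of 1.03% of 27025 genes, and *Slc7a11* was the only one of the 35 genes with a window that held them. The 250 bases before the start (GRCm38.p6, chr3:50443614-50443863, minus strand) are shown because this gene had the largest difference of the 41, and capitals mark the matches at positions −66 and −47 from the start.
Slc7a11: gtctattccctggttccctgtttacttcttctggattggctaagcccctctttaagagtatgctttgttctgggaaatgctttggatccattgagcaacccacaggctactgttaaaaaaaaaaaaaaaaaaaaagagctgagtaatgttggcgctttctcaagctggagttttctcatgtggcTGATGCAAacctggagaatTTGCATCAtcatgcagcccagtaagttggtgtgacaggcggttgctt

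The transcription factor was higher and its sensor little different. *Nfe2l2* (mm9, chr2:75513771-75513830) gave 2766 and 4523, a difference of 0.99 that lay within the technical SD of the 2-fold line, and it was above 0 under all 12 alternatives (0.56 to 1.06). *Keap1* gave 5106 and 4129.85, a difference of −0.02 that changed sign between settings. Of the 10 partners and antagonists of the pathway, 2 were at least 2-fold higher and 1 was at least 2-fold lower (6.70% and 3.04% of all genes), with a median of 0.17. Both higher ones lay close to the 2-fold line and were past it under 6 of the 12 alternatives. *Nfe2l3*, a relative of Nrf2, differed by 1.03 by its brightest probe and by 0.53 by its other probe. *Maff*, one of the small Maf partners, gave 1868 and 3100 (1.01). *Bach2*, a repressor that binds the same elements, gave 3251 and 1157 (−1.21), and its second probe was also lower (−0.79). *Bach1* in the same list went the other way, with 3539 and 4776 (0.71), and was above 0 under all 12 alternatives.

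Among the classical enzymes of the response the direction was mixed. *Nqo1* encodes the quinone reductase often used as a readout of Nrf2, and its probe (mm9, chr8:109912440-109912499) gave 149 and 241, a difference of 0.98. *Osgin1*, an oxidative stress-induced growth inhibitor (mm9, chr8:121970077-121970136), gave 239.8 and 401, a difference of 1.02, just past the 2-fold line. *Hmox1*, which encodes the inducible haem oxygenase that breaks down haem, was the only gene of the 41 at least 2-fold lower. Its brightest probe (mm9, chr8:77624207-77624266) gave 11430 and 3200.2, a difference of −1.55, or 2.94-fold lower, and ranked 169 from the lowest. The second *Hmox1* probe gave 908 and 312 (−1.26), and the gene lay between −1.99 (spike-in centring) and −1.41 (the mean of both probes) under all 12 alternatives. *Ephx1*, the microsomal epoxide hydrolase, gave 9511 and 5199.62 (−0.59), and its other probe differed by −0.50. *Ugdh*, which makes UDP-glucuronate for conjugation, differed by −0.26, and the export pump gene *Abcc1* by −0.13.

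The 3 genes that build glutathione after cystine import were below 0 under all settings run. *Gclc*, the catalytic subunit of glutamate-cysteine ligase and thus of the first step, gave 6350 and 3065, a difference of −0.77. Its modifier subunit *Gclm* gave 544 and 374 (−0.26), and *Gss*, glutathione synthetase, gave 779 and 464 (−0.46). None of these 3 reached 2-fold with the main scaling. *Gsr*, the reductase that renews glutathione with NADPH, differed by 0.20 and by 0.15 on its other probe, and was below 0 with no scaling or spike-in centring. In the wider list of 14 genes of glutathione turnover and cysteine supply, the median was −0.13. In this list 1 gene was past each 2-fold line (6.70% and 3.04% of all genes). With spike-in centring this became 0 higher and 2 lower (3.73% and 9.84% of all genes). *Cbs*, the first enzyme that turns homocysteine towards cysteine, gave 5537 and 1395 (−1.71). *Ggt5*, a gamma-glutamyl transferase, differed by 1.22 by its brightest probe and by 0.20 by a second one that was well above background.

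**Figure D2:**
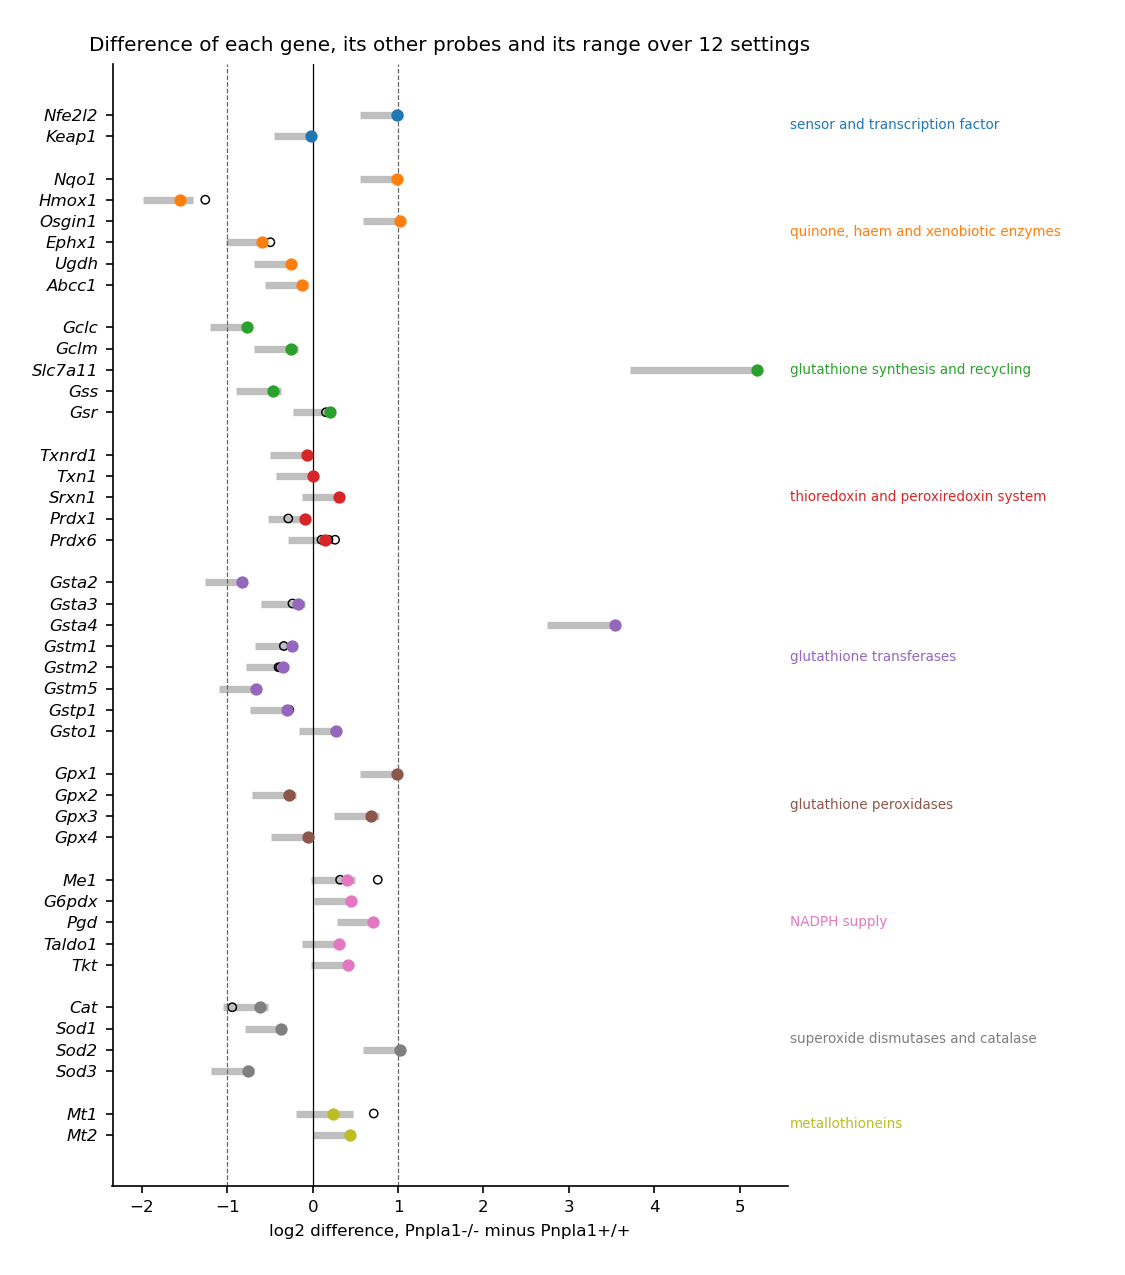
Log2 difference (*Pnpla1*-/- minus *Pnpla1*+/+) of the 41 genes by role, with filled points for the main value, open circles for other probes of the gene, grey lines for the range over 12 alternative settings and dashed lines at 2-fold. *Slc7a11*, *Gsta4* and *Hmox1* are the only genes whose whole grey line lies past 2-fold.

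Of the glutathione transferases, which attach glutathione to reactive compounds, *Gsta4* alone was past 2-fold. Its enzyme is known for its activity towards 4-hydroxynonenal, an aldehyde formed when lipids are peroxidised. The probe (mm9, chr9:78046172-78047344) was spotted repeatedly, and 1 of its spots, flagged as an outlier, was left out (3.38 with it kept). Over the 9 other spots the *Pnpla1*+/+ signal ran from 74.5 to 84.1 with a median of 78.1, and the *Pnpla1*-/- signal from 707 to 801 with a median of 751. These spots did not overlap, and they are repeats on the same 2 arrays rather than samples. The difference was 3.54, or 11.6-fold, with rank 97 from the highest, and 2.74 after normexp background correction.

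The other transferases lay within 2-fold, most of them below 0. *Gsta2*, of the same alpha class, gave 10143 and 4702 (−0.83), and *Gsta3* gave 620 and 452 (−0.17). Both are alpha-class relatives of *Gsta4*, whose difference was of the opposite sign. The mu-class gene *Gstm5* gave 5778 and 2991 (−0.67), *Gstm2* gave 12883 and 8313 (−0.35), and *Gstm1* differed by −0.24 and by −0.34 on its other probe. The files place the brightest *Gstm1* probe on chromosome 5, while the gene lies on chromosome 3, so that value is less certain than the second. *Gstp1*, the pi-class enzyme, gave 5954 and 3981 (−0.30), and *Gsto1*, of the omega class, by 0.27 (−0.17 with spike-in centring). The median of the 8 measured transferases was −0.27. Probes of this multigene family may share target sequence, and how far they cross-hybridise was not tested. Of 15 other transferases in the wider list, *Gstm6* alone was past 2-fold, a share near the 6.70% of all genes, with 472 and 1148 (1.56), and the median was −0.09. Of the other *Gstm6* probes, 3 were well above background and differed by 1.504, 1.44 and 0.20.

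The genes that remove superoxide and peroxides were divided between the high and the low side. *Gpx1*, the abundant cytosolic glutathione peroxidase (mm9, chr9:108242276-108242335), gave 33589 and 54574, a difference of 0.98 that lay within the technical SD of the 2-fold line. *Gpx3*, the secreted form, gave 733 and 969.8 (0.68), and *Gpx2* differed by −0.27. *Gpx4*, which reduces lipid hydroperoxides inside membranes, gave 23726 and 18739 (−0.06). *Sod2*, the manganese superoxide dismutase of mitochondria (mm9, chr17:13208074-13208133), gave 20756 and 34539, a difference of 1.02. The remaining dismutases and catalase lay below 0. *Sod1*, the cytosolic form, gave 44127 and 28141 (−0.37), and *Sod3*, the extracellular form, gave 4418 and 2148 (−0.76). *Cat*, or catalase, gave 2303 and 1234 (−0.62), and its second probe differed by −0.94. The mitochondrial dismutase and the other ones thus differed in opposite directions on these arrays.

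The thioredoxin system, which reduces protein disulfides, showed small differences, and *Txn1*, *Srxn1* and *Prdx6* changed sign between settings. *Txnrd1*, thioredoxin reductase, differed by −0.07, *Txn1*, thioredoxin itself, by 0.01, and *Srxn1*, which repairs overoxidised peroxiredoxins, by 0.30. *Prdx1* differed by −0.09 and by −0.29 on its other probe. *Prdx6* differed by 0.14, and its 4 probes lay between 0.10 and 0.26. The median of these 5 genes was 0.01. Among 21 other peroxidases, redoxins and methionine sulfoxide reductases, the median was −0.10, and *Glrx*, or glutaredoxin, was the only one past 2-fold (6.70% of all genes higher and 3.04% lower), with 5331 and 8889 (1.02), close to the line. The count of 1 higher and 0 lower became 0 and 2 with no scaling (4.47% and 6.37% of all genes). With spike-in centring it was 0 and 3 (3.73% and 9.84% of all genes). *Gpx7* and *Gpx8*, peroxidases of the endoplasmic reticulum, differed by −0.92 and −0.88 and were past the lower line under these scalings.

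NADPH comes largely from the oxidative pentose phosphate pathway and malic enzyme, and the non-oxidative branch of the pathway recycles its sugars. All 5 genes examined here were above 0 with the main scaling, but only *Pgd* and *G6pdx* stayed so with spike-in centring, and none reached 2-fold. *Pgd* and *G6pdx*, the dehydrogenases of the oxidative pentose phosphate pathway, gave 7824 and 10532 (0.71) and 9460.1 and 10626 (0.45). *Me1*, malic enzyme, differed by 0.41, with its 3 probes between 0.32 and 0.76. *Tkt* and *Taldo1*, of the non-oxidative branch, differed by 0.41 and 0.31. With spike-in centring *Pgd* was at 0.28, *G6pdx* at 0.02, *Me1* at −0.03, *Tkt* at −0.02 and *Taldo1* at −0.13. *G6pdx* is X-linked, and the balance of sexes differed between the pools, as *Xist* differed by 1.12 and the Y-linked *Ddx3y* by −2.19. Its part in the values was not tested. The 5 other enzymes of the pathway with a difference had a median of 0.14, with none past 2-fold.

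Metallothioneins, small proteins that bind zinc and copper through cysteines, differed little in this skin apart from *Mt4*. *Mt1* gave 90585 and 87887 (0.24), and its second probe differed by 0.71. *Mt2* gave 89436 and 99189 (0.43). Both signs depended on scaling, since with spike-in centring *Mt1* was at −0.19 and *Mt2* just below 0. *Mt4*, the metallothionein of stratified squamous epithelium, gave 1305 and 282, a difference of −1.93, and was the only one of 5 other metallothionein and zinc genes past 2-fold (3.04% of all genes lower).

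**Figure D3:**
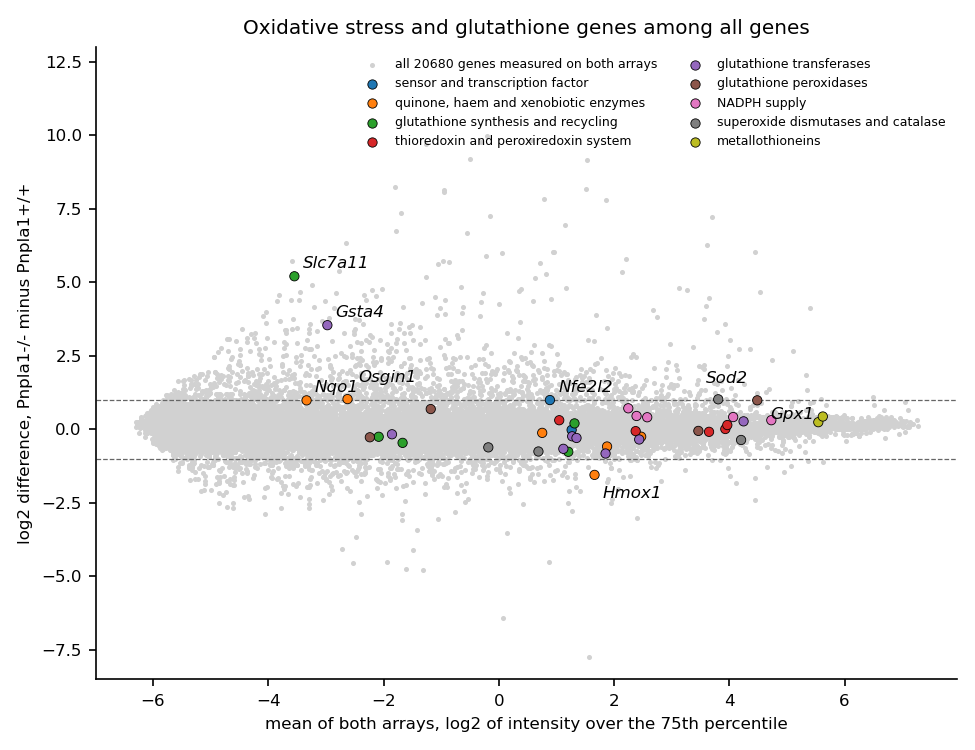
Log2 difference (*Pnpla1*-/- minus *Pnpla1*+/+) against the mean of both arrays (log2 of intensity over the 75th percentile) for all 20680 genes measured on both arrays, with the 41 genes coloured by role and dashed lines at 2-fold. *Slc7a11* at 5.20 and *Gsta4* at 3.54 lie among dim genes, and most of the others lie inside the 2-fold lines.

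Of 16 further genes known as Nrf2 targets, 15 had a difference, with a median of 0.21. *Akr1b8*, an aldo-keto reductase that acts on aldehydes, was the only one past 2-fold, a share near the 6.70% of all genes, with an average over 10 spots of 3281 and 8208 (1.60). *Abcc2* did not stand well above background on any array. The other 14 lay within 2-fold.

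The genes of enzymes that produce superoxide, hydrogen peroxide or nitric oxide, listed with those of their subunits and maturation factors, differed more. Of 13 with a difference, 6 were past the upper 2-fold line, beside 6.70% of all genes, and 0 past the lower one, and the median was 0.79, the highest of the 8 related lists. *Duoxa1*, the maturation factor of the dual oxidase Duox1, gave 1201 and 7129 (2.85), and a second probe gave 126 and 482 (2.22). *Duox1*, an epithelial source of hydrogen peroxide, gave 207 and 635 over 10 spots (1.90). Genes of the phagocyte NADPH oxidase were also higher. *Cybb*, its membrane subunit, gave 80.7 and 188 (1.502), and *Ncf1* and *Ncf4*, cytosolic subunits, differed by 1.70 and 1.94. *Xdh*, xanthine dehydrogenase, gave 1824 and 4846 (1.69). *Duox2* differed by −0.69 by its brightest probe, and −0.23 after normexp, whereas its second probe, detected on the *Pnpla1*-/- array only, gave a difference of at least 0.75, so its direction was not settled. *Duoxa2* did not stand well above background on any array. The 6 genes past the upper line were past it under all 12 alternatives. *Bach1*, *Cybb*, *Xdh*, *Duox2*, *Duoxa2*, *Abcc2*, *Slc3a2*, *Gpx7* and *Gpx8* fell outside the rule for naming genes. They were added after their values had been seen.

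**Figure D4:**
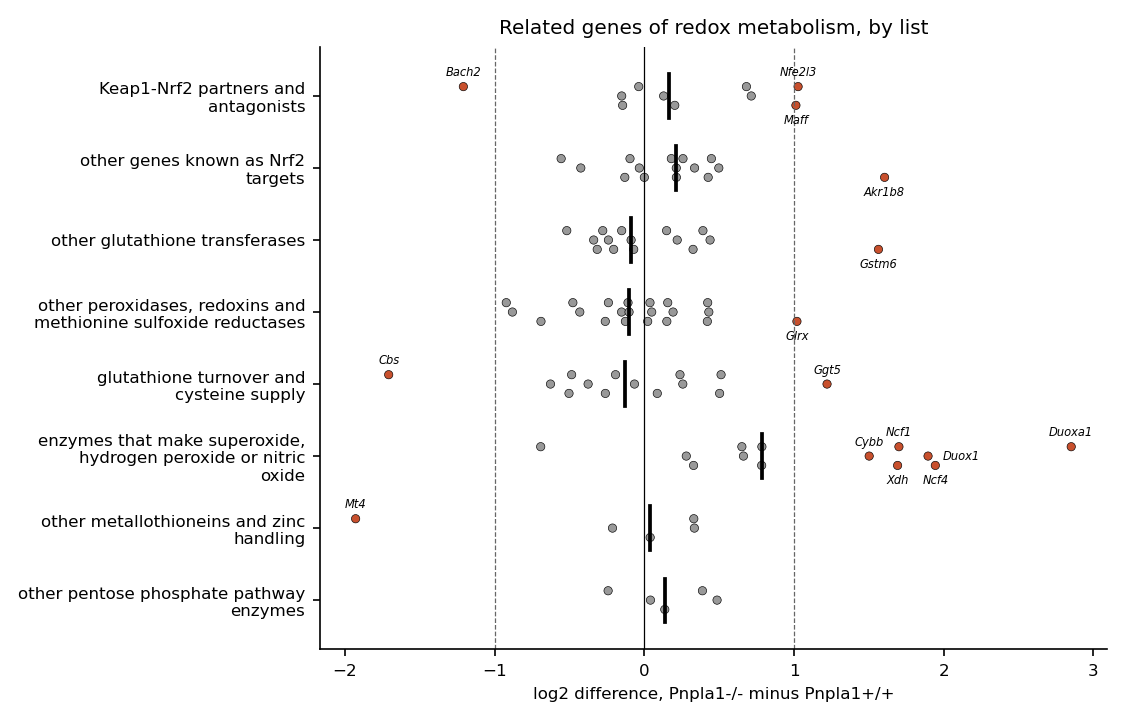
Log2 difference (*Pnpla1*-/- minus *Pnpla1*+/+) of each gene in 8 lists of related redox genes, with black bars for list medians, dashed lines at 2-fold and names for genes past them. The list of oxidant-producing enzymes has its median at 0.79, while the medians of the other lists lie between −0.13 and 0.21.

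Cell type markers differed between the pools too. In bulk RNA, fewer cells of a type and less RNA per cell cannot be told apart. Of 7 leukocyte markers, 6 were above 0 and 2 at least 2-fold higher (6.70% of all genes), with a median of 0.67. Spike-in centring moved all differences down by 0.43, so *Cd3e* (0.13) and *Ly6g* (0.42) fell below 0 with it. *Ptprc* gave 232 and 542 (1.51), *Lyz2* gave 361 and 1512 (2.35), and *Itgam* differed by −0.03. Their summed intensity was 31516 and 36758, a ratio of 1.42 after scaling that weighs most the brightest probes, those of *Csf1r* (0.67) and *Itgam*. The phagocyte oxidase genes *Cybb*, *Ncf1* and *Ncf4* were at least 2-fold higher, as were *Ptprc* and *Lyz2* but not the other leukocyte markers. The part of leukocytes in that result was not tested. All 6 hair follicle markers were lower, with a median of −0.999 and a summed intensity of 162418 and 70722.7, a ratio of 0.53, and *Krt71* was the brightest. The part of hair follicles in the lower values of *Mt4*, *Gclc* and the transferases was not tested. Of 4 red blood cell markers with a difference, 3 were above 0, with *Hba-a1* the brightest at 0.83 and *Alas2* at 1.32, whereas *Hmox1* was lower. The 6 keratinocyte markers had a median of 0.17 and ranged from 0.02 (*Ivl*) to 1.35 (*Krt14*), with *Krt10*, which gave the highest signal, at 0.20. Fibroblast, adipocyte and muscle markers had medians of −0.07, 0.06 and 0.06. All 5 endothelial markers were above 0 (median 0.31), and 4 of 5 melanocyte markers were below 0 (median −0.38). With spike-in centring the endothelial, keratinocyte, adipocyte and muscle medians fell below 0.

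The promoters of the genes were then searched for the antioxidant response element core, TGACNNNGC on either strand, in RefSeq windows from 250 bases before to 50 bases after the start (GRCm38.p6). Windows were given for 35 of the 42 genes and not for *Hmox1*, *Abcc1*, *Gclc*, *Gsr*, *Prdx6*, *Gsta4* or *Sod3*. The core was in the windows of 13 of the 35 genes (37.1%), beside 14.0% of all 27025 genes with a window. None of the 13 genes with the core was past 2-fold, and their differences ran from −0.67 (*Gstm5*) to 0.99 (*Nfe2l2*) with a median of −0.07. The 21 measured genes without it had a median of 0.01, and 3 of them were at least 2-fold higher. Over all genes with a difference, 6.70% lay above the upper 2-fold line and 3.04% below the lower one. These counts are small and only describe the 2 sets. A match of letters is a description and does not show binding, and known elements of several of these genes lie outside such a window.

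To show the matches, the core in capitals with up to 15 bases on each side is given for genes that spanned the range of differences, read 5′ to 3′ along the gene's strand. They lie at chr3:107895797-107895835 (*Gstm5*, plus strand), chr3:122245408-122245446 (*Gclm*, plus), chr4:116685451-116685489 (*Prdx1*, plus), chr9:86695897-86695935 (*Me1*, minus), chr8:94172524-94172562 (*Mt2*, plus), chrX:74428914-74428952 (*G6pdx*, minus) and chr2:75704880-75704913 (*Nfe2l2*, minus). The first 3 are from genes below 0 (−0.67, −0.26 and −0.09) and the last 4 from genes above 0 (0.41, 0.43, 0.45 and 0.99).
Gstm5: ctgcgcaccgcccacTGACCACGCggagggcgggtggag
Gclm: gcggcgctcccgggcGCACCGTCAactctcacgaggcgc
Prdx1: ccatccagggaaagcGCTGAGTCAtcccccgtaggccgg
Me1: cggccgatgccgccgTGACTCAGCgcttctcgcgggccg
Mt2: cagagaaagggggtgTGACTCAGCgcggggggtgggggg
G6pdx: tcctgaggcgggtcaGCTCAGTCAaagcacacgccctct
Nfe2l2: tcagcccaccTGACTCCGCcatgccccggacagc

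*Me1* and *Mt2* share the letters TGACTCAGC, and *Prdx1* holds the same letters on the other strand. The metal response element core, TGCGCNC or TGCACNC on either strand, was in the windows of 28.6% of the 35 genes and of 28.2% of all genes. *Mt1* held 3 matches and *Mt2* 4, and neither gene was past 2-fold.

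**Figure D5:**
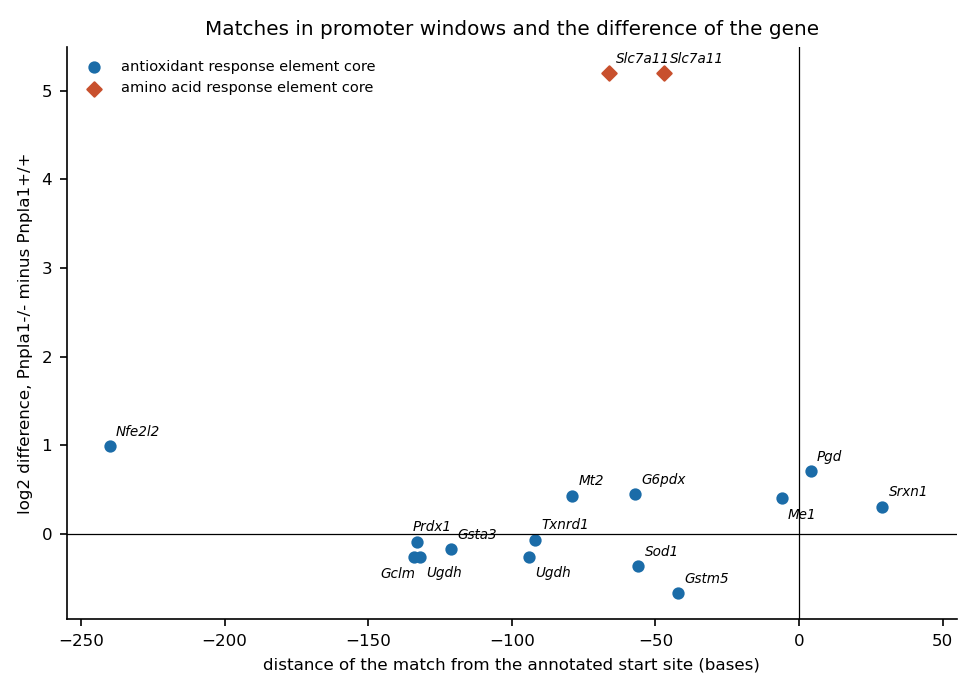
Log2 difference (*Pnpla1*-/- minus *Pnpla1*+/+) of a gene against the position of each match in its promoter window (bases from the start site). Matches to the antioxidant and the amino acid response element cores are shown, and those to the metal response element core are not. Genes with the antioxidant response element core lie between −0.67 and 0.99. *Slc7a11*, at 5.20, holds only the amino acid response element core.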

How the data were processed

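The authors pooled RNA of 6 skins per genotype, labelled it with Cy3, hybridised 1 array each and deposited linear intensity values from Feature Extraction 11.5.1.1, background-subtracted and detrended within the array. The authors also deposited a ratio table, in which each intensity was divided by 1 factor per array (2109.24 and 1734.11). Probe positions are mm9.

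In Python 3.11.15 (numpy 2.4.6, pandas 2.3.3), control spots and spots flagged as outliers (138 and 82) were left out, the signal was divided by the 75th percentile of 43020 spots, repeat spots were averaged after taking log2, and the brightest probe stood for a gene. Of these 43020 spots, which hold 39429 probes and include the flagged spots, 71.7% and 73.3% were well above background and 0 were saturated. Where just 1 array detected a gene, its difference is a bound. Of 30133 genes, 20680 were measured on both arrays, 1694 gave a bound, 7743 were below background on both and 16 had no usable bound. Another 6 of the 30139 had only flagged spots. Gene names were updated through RefSeq (27508 probes by accession, 3544 by symbol, 404 by older symbol), and 7973 kept the file's name. Normexp, quantile and cyclic loess alternatives used limma 3.58.1 in R 4.3.3. Scripts were tested on simulated data. With 1 array per group no test was possible, and array number limits precision.

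Members and lists were chosen with earlier results of these data known. Named genes were all members, and up to 4 genes each way past 2-fold in each related list; exceptions are named in the text. No protein sequences were used here. Of the oxidant-producing enzymes, 1 gene was left out of the list and is not reported here.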

Additional observations from a re-analysis of the deposited data

How the results depend on the processing

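No paired analysis was possible because each genotype had 1 array. Of the 41 genes, 30 kept their sign under 12 alternative settings (10 higher, 20 lower), and the 11 that did not lay within 0.43 of 0. *Slc7a11*, *Gsta4* and *Hmox1* stayed past 2-fold under all 12. Members at least 2-fold higher numbered 2, against 4, under median scaling, no scaling, a percentile over probes detected on both arrays, quantile normalization, spike-in centring, normexp and a 3-fold threshold, and 9 at 1.5-fold. Members at least 2-fold lower, 1 in the main setting, numbered 4 with no scaling, 7 with spike-in centring, 7 at 1.5-fold and 0 at 3-fold. Their median was −0.31 with no scaling, −0.12 with quantile normalization and −0.46 with spike-in centring. Related genes at least 2-fold lower numbered 5 with no scaling, 8 with spike-in centring and 8 at 1.5-fold, against 3, and 6 were higher at 3-fold, against 12. Their median was −0.15 with no scaling and −0.30 with spike-in centring. Over all genes with a difference, 6.70% higher and 3.04% lower became 4.47% and 6.37% with no scaling, 3.73% and 9.84% with spike-in centring, 4.34% and 1.45% with normexp, 10.1% and 3.67% with no filter on dim probes, 13.8% and 9.35% at 1.5-fold and 3.06% and 1.02% at 3-fold. Spike-in centring moved all differences down by 0.43, and its 8 probes ranged from 0.30 to 0.52. The thresholds and the filter act by construction, and for the other settings the cause was not tested. Dim signals limit the folds of *Slc7a11* and *Gsta4*.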

Other observations

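A pair of further gene groups was examined after the values had been seen, and their counts are descriptions. Of 15 genes of the Atf4 pathway and the amino acid response, a programme that cells switch on when amino acids run short and that is known to include *Slc7a11*, 12 were above 0 (50.2% of all genes), with a median of 0.48. With spike-in centring, a setting added here after seeing the data, 8 were above 0 (19.2% of all genes) and the median was 0.05. *Trib3*, a pseudokinase of this response, gave 4637 and 9605 (1.33) and was the only one past 2-fold, beside 6.70% of all genes above that line. It was at 0.90 with spike-in centring, which left 0 of the 15 past 2-fold (3.73% of all genes higher and 9.84% lower). *Asns*, asparagine synthetase, differed by 0.83, *Cebpb* by 0.82, *Nupr1* by 0.80 and *Vldlr* by 0.78, whereas *Atf4* itself differed by 0.25, *Ddit3* by 0.23 and *Atf3* by −0.56.

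Of 12 genes of iron and haem handling, 3 were past the upper 2-fold line and 1 past the lower (6.70% and 3.04% of all genes), with a median of 0.34. With spike-in centring these were 2 and 2 (3.73% and 9.84% of all genes), since *Cd163* was at 0.70 and *Alad* at −1.25. The median was then −0.09. *Lcn2*, a binder of bacterial iron carriers, gave 528 and 11382 (4.71). *Hp*, haptoglobin, gave 17112 and 40684 (1.53), and *Cd163*, the receptor for haptoglobin-bound haemoglobin on macrophages, gave 55.4 and 99.98 (1.13). *Slc40a1*, the iron exporter ferroportin, gave 4894 and 1644 (−1.29), lower together with *Hmox1*, and *Alad*, of haem synthesis, differed by −0.82.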
